A study of Oryza sativa with 9 samples.

Results

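Rice spikelets, the floral units that carry the anthers and the pistil, were compared between plants of 3 genotypes at f5, a locus of male sterility in hybrids between rice subspecies. The genotypes were f5-j/j (homozygous for the j allele), f5-i/j (heterozygous) and f5-i/i (homozygous for the i allele), all among BC14F2 plants, the selfed progeny of a long backcross series, grown in the field in rows under the same management. PolyA RNA of 9 samples was sequenced, 3 per genotype. Described here are 51 transcripts of 832 that the authors list as differentially expressed in 3 deposited tables, 1 table for each pair of genotypes. They are the transcripts whose level in f5-j/j stood apart from both other genotypes, so that plants without an i allele differed from plants with at least 1.

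The rule took transcripts listed in the f5-j/j against f5-i/j table and in the f5-j/j against f5-i/i table but not in the f5-i/j against f5-i/i table, with an f5-j/j mean at least 2-fold above or below both other means. There were 89 of these, and all 89 were past the fold. Keeping loci with a single transcript in the 3 tables left 70, leaving out chromosome 5 left 59, and leaving out descriptions with words for ribosomal and translation proteins, tRNA, ubiquitin and proteasome, heat shock proteins and chaperones, and photosystem and light-harvesting proteins left 51. The members were thus chosen on the genotype means, and the levels below describe them without a test. Both contrasts use the same f5-j/j samples, so being listed in both is not a repeated observation.

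In a heterozygote, a transcript can stand midway between the homozygotes, near 1 of them, or beyond both. A level near 1 homozygote is called dominant expression. Male fertility in rice depends on the anther, where the tapetum, the innermost wall layer, feeds the developing pollen and supplies lipids and wall precursors before its cells die. Lipid transfer proteins, sugar supply, cell wall synthesis and controlled hydrogen peroxide production are among the processes known to act there.

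Of the 51 transcripts, 24 were higher and 27 lower in f5-j/j than in both other genotypes. For background, 23.3% of the 832 transcripts were listed as higher and 18.8% as lower in f5-j/j than in f5-i/j, and 27.8% were listed as higher and 22.8% as lower in f5-j/j than in f5-i/i. The rule itself used these calls, so nothing is read from the counts. The values are the authors' means over the samples of a genotype, whose unit was not stated in any label or header, with 0.01 as their smallest value, called the floor here. No single-sample values were analysed here, so the means carry no error, read depth is unknown, and no difference could be set against the spread between replicates.

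Most members were at the floor in at least 1 genotype, so that the f5-j/j level and the others could not be set in a ratio. At least 1 of the 3 means was at the floor for 37 of the 51 transcripts (72.5%). Floor values were common in the tables as a whole. Of all transcripts listed between f5-j/j and f5-i/j, 58.0% had 1 of their 2 means at the floor. Between f5-j/j and f5-i/i it was 50.8%. These shares rest on 2 means and not on 3. Among the 24 higher transcripts, 19 were at the floor for both f5-i/j and f5-i/i, and their authors' mean in f5-j/j ran between 3.72 and 22.8 with a median of 7.21. Among the 27 lower transcripts, 17 were at the floor for f5-j/j, with medians of 5.93 for f5-i/j and 7.60 for f5-i/i. Other models of such a locus may be unlisted, so a model at the floor does not show that the gene was silent. Dividing reads among models or near-identical genes was part of the authors' processing, and levels of single models are uncertain to that extent.

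**Figure D1:**
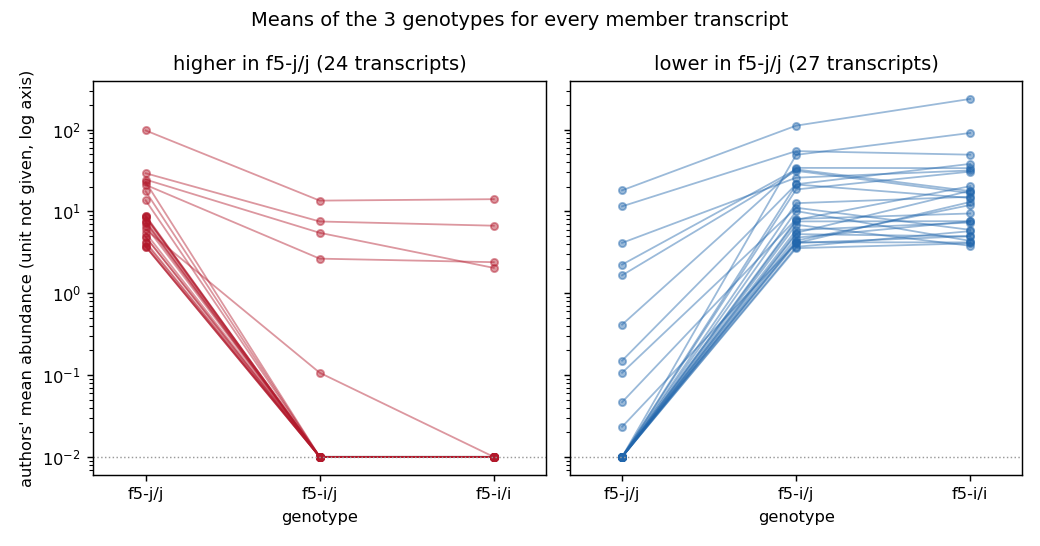
Each line is 1 of the 51 transcripts, with the authors' mean (log axis) in f5-j/j, f5-i/j and f5-i/i; the dotted line marks the floor of 0.01. The 24 transcripts higher in f5-j/j mostly drop to the dotted line in the other 2 genotypes, and 17 of the 27 lower ones lie on it in f5-j/j.

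Only 1 member, LOC_Os11g37280.1 on chromosome 11, belongs to a list of 17 tapetum and pollen wall loci searched by locus identifier. The list was drawn up from general knowledge, and the tie of this member to male reproduction rests on it alone. The authors' mean of LOC_Os11g37280.1 was 0.413 for f5-j/j, 34.05 for f5-i/j and 33.8 for f5-i/i. The heterozygote and f5-i/i were thus almost level, and both stood above f5-j/j by 82.4-fold and 81.7-fold. A mean of 0.413 over 3 values also limits every single f5-j/j sample to 1.24 at most. In whole spikelets, fewer cells of a type and less RNA per cell cannot be told apart. Of the list, 1 other locus was listed, LOC_Os08g38810.1, with the authors' mean at the floor for f5-j/j, 21.4 for f5-i/j and the floor for f5-i/i, and so it was no member. The other listed marker of the spikelet was the floral organ MADS-box locus LOC_Os01g66030.2, 1 of 12 searched, with 5.98 for f5-j/j and 31.3 for f5-i/i as authors' means. Absence from filtered tables does not show absence from the tissue, so the spikelet label could be checked only in part.

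LOC_Os11g37280.1 has no description in the tables beyond the Gene Ontology (GO) component cytoplasmic vesicle. A pair of other undescribed, fairly short transcripts with the same component, 354 and 621 coding bases long, were lower in f5-j/j as well. LOC_Os12g02310.1 had the authors' mean of 2.24 for f5-j/j, 32.6 for f5-i/j and 17.7 for f5-i/i. LOC_Os10g05910.1 had 11.5 for f5-j/j, 54.6 for f5-i/j and 49.3 for f5-i/i. These 3 were singled out after their values were seen. Undescribed transcripts with this GO component did not share 1 direction across the tables, with 5 higher and 6 lower in f5-j/j than in f5-i/j, and 7 higher and 5 lower than in f5-i/i. These counts include the 3 members, which are among the lower in both comparisons. The component was given to 8 of the 51 members (15.7%), 5 higher and 3 lower in f5-j/j, and to 10.1% of all 832 listed transcripts.

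A member of the opposite direction was annotated to flower development. LOC_Os03g11600.1, whose GO processes include floral organ development and meristem maintenance, had the authors' mean of 13.7 for f5-j/j and was at the floor for f5-i/j and f5-i/i. Its listed coding sequence has 591 bases.

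Regulators of transcription and chromatin went both ways. The most abundant transcript among those higher in f5-j/j was LOC_Os06g51260.1, matched to LHY, a MYB-related factor of the circadian clock. Its authors' mean was 97.6 for f5-j/j, 13.55 for f5-i/j and 14.1 for f5-i/i, so f5-j/j was 7.20-fold and 6.92-fold higher. A match to LHY does not by itself identify a locus as the LHY gene. The other locus matched to LHY, LOC_Os08g06110, did not share the pattern of LOC_Os06g51260.1. Its 4 listed models carried the same authors' means, 75.5 for f5-j/j, 43.1 for f5-i/j and 1.45 for f5-i/i. There the heterozygote lay nearer to f5-j/j, and the locus was no member.

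Lower in f5-j/j was a SETD2 histone lysine methyltransferase, an enzyme that marks the chromatin of transcribed genes (LOC_Os09g13740.2). Its authors' mean was 0.0467 for f5-j/j, 8.09 for f5-i/j and 9.43 for f5-i/i, and no f5-j/j sample can have exceeded 0.14. A histone deacetylase of the HDAC1/2 class (LOC_Os06g38470.3), which removes acetyl groups from histones, was at the floor for f5-j/j, with 3.55 for f5-i/j and 4.07 for f5-i/i. Both chromatin enzymes were thus at or near the floor for f5-j/j and above it for the other genotypes. Listed transcripts matched by the words for transcription and chromatin were listed as 24 higher and 4 lower in f5-j/j than in f5-i/j, and 19 higher and 12 lower than in f5-i/i. Of all transcripts listed in these 2 comparisons, 55.4% and 54.9% were higher in f5-j/j. The listed models of LOC_Os08g06110, which carry the same means, are each counted among the 19.

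The components that act with RNA polymerase II described next were not all of 1 word list and were put together after their values were seen. They also went both ways. The kinase CDK8/11 of the Mediator complex (LOC_Os10g42950.2) was at the floor for f5-j/j and had the authors' mean of 4.2 for f5-i/j and 4.18 for f5-i/i. Subunit 11 of the Integrator complex (LOC_Os07g27950.2), an RNA endonuclease, was also at the floor for f5-j/j, against 7.55 for f5-i/j and 7.60 for f5-i/i. In both cases the heterozygote and f5-i/i differed by less than 1%. A phosphatase resembling those of the polymerase tail (CTD small phosphatase-like protein 2, LOC_Os01g43870.4) went the other way, with 3.72 for f5-j/j and the floor for f5-i/j and f5-i/i.

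Members matched by the words chosen for RNA processing went both ways. Arginine/serine-rich (SR) splicing factor 2 (LOC_Os08g37960.3), which helps select splice sites, had the authors' mean of 6.64 for f5-j/j and the floor for the other genotypes. LOC_Os03g04930.1, whose best match is pre-mRNA-processing factor 39 and which also carries an unrelated definition of a vacuolar sorting protein, had 8.91 for f5-j/j and the floor for the others. SR splicing factor 7 (LOC_Os06g08840.8) was at the floor for f5-j/j, 5.47 for f5-i/j and 17.9 for f5-i/i. That heterozygote mean was also the farthest below f5-i/i among the 31 members above the floor for both, at 0.306 of it. These words matched 4 members, 3 higher and 1 lower, of 11 listed transcripts, which were listed as 4 higher and 3 lower in f5-j/j than in f5-i/j, and 4 higher and 4 lower than in f5-i/i. The fourth, LOC_Os01g09220.1, had 29.3 for f5-j/j, 7.53 for f5-i/j and 6.69 for f5-i/i, and its match to the nuclear GTPase Ran and to a nucleolar protein is weak. A transcript weakly matched to the splicing coactivator SRRM2 (LOC_Os11g06130.3) had 6.02 for f5-j/j, 0.107 for f5-i/j and the floor for f5-i/i.

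The 3 enzymes of malate and glycolysis described next came from different word lists and were put together after their values were seen. Transcripts matched by the words for carbohydrate and energy were listed as 9 higher and 9 lower in f5-j/j than in f5-i/j, and 14 higher and 10 lower than in f5-i/i. A phosphoglycerate mutase of glycolysis on chromosome 5, left out by the rule (LOC_Os05g40420.2), was higher, with 57.0 for f5-j/j, 8.89 for f5-i/j and 12.3 for f5-i/i as authors' means. Malate dehydrogenase (LOC_Os10g33800.3), which converts malate and oxaloacetate, had the highest level of the transcripts at the floor for f5-j/j. It was at the floor for f5-j/j, with the authors' mean of 49.1 for f5-i/j and 90.9 for f5-i/i. The decarboxylating malate dehydrogenase, or malic enzyme (LOC_Os10g35960.2), was at the floor for f5-j/j, 3.69 for f5-i/j and 5.74 for f5-i/i. Phosphoglycerate kinase (LOC_Os02g07260.3), an ATP-forming step of glycolysis, was at the floor for f5-j/j, 18.5 for f5-i/j and 30.6 for f5-i/i. For these 3 enzymes the heterozygote mean was between 0.540 and 0.643 of the f5-i/i mean.

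The 3 membrane carriers described next came from different word lists and were put together after their values were seen. An ATP:ADP antiporter (LOC_Os02g11740.2), which exchanges the adenylates across an organelle membrane, had the authors' mean of 1.66 for f5-j/j, 31.3 for f5-i/j and 16.7 for f5-i/i. A transporter matched to myo-inositol carriers (LOC_Os10g39440.2) had 0.150 for f5-j/j, 21.5 for f5-i/j and 38.1 for f5-i/i, a difference of 143-fold and 254-fold. Myo-inositol feeds the synthesis of wall sugars and of signalling phospholipids. A membrane carrier of solute carrier family 35, member E3 (LOC_Os01g07310.2), was at the floor for f5-j/j, 7.88 for f5-i/j and 20.3 for f5-i/i. Transcripts matched by the words for transport and vesicles were listed as 6 higher and 5 lower in f5-j/j than in f5-i/j, and 9 higher and 6 lower than in f5-i/i. The f5-j/j samples cannot have exceeded 4.97 for the antiporter and 0.450 for the myo-inositol carrier.

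A cellulose and a pectin enzyme of the cell wall were both at the floor for f5-j/j. Cellulose synthase A (LOC_Os07g24190.3), the catalytic subunit that spins out cellulose, had the authors' mean of 12.6 for f5-i/j and 15.1 for f5-i/i. Pectinesterase (LOC_Os01g21034.2), which removes methyl groups from pectin, had 4.78 for f5-i/j and 7.58 for f5-i/i. The words chosen for the cell wall matched these 2 members among 5 listed transcripts. The 5 were listed as 1 higher and 2 lower in f5-j/j than in f5-i/j, and 1 higher and 2 lower than in f5-i/i. The 2 lower were these members in both comparisons. A glucan endo-1,3-beta-glucosidase (LOC_Os11g47820.2), of the enzymes that cut callose and related glucans, went the other way, with 7.72 for f5-j/j and the floor for f5-i/j and f5-i/i. None of the 3 other listed transcripts with that KEGG number (an entry of the KEGG Orthology catalogue of gene functions) was a member. LOC_Os05g31140.1 among them lies on chromosome 5, which the rule leaves out. A glycosyltransferase matched to protein O-mannose N-acetylglucosaminyltransferase (LOC_Os02g22650.1) was at the floor for f5-j/j, 5.93 for f5-i/j and 7.31 for f5-i/i. An alpha-mannosidase (LOC_Os06g47860.1), which trims sugar chains of glycoproteins, had 3.72 for f5-j/j and the floor for the others.

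**Figure D2:**
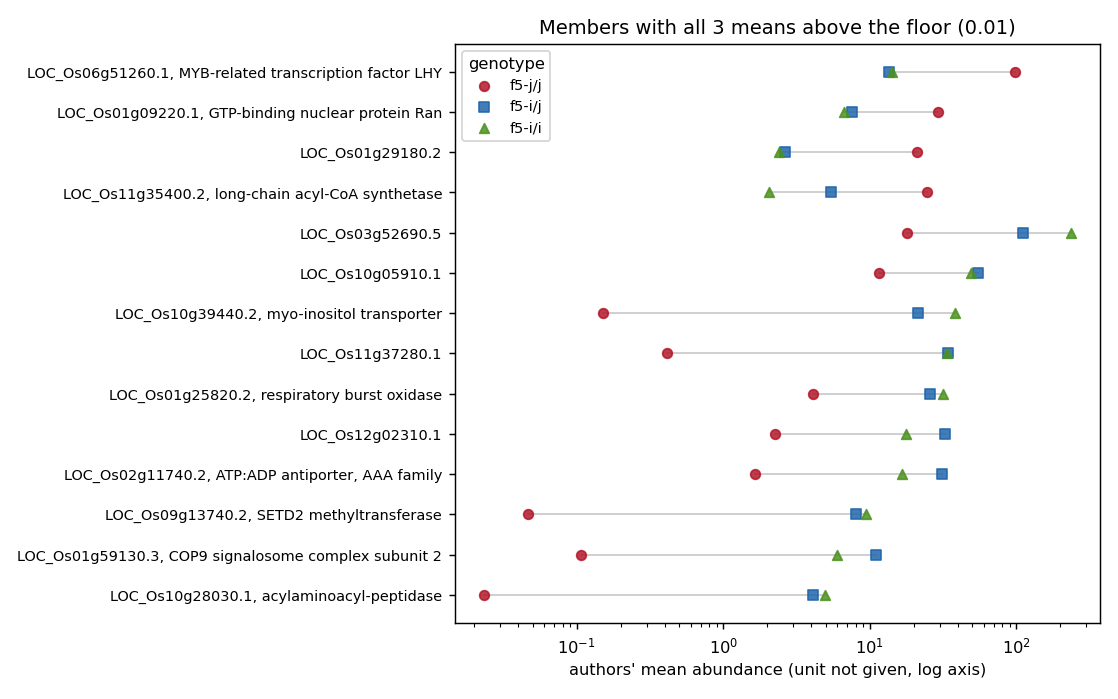
Authors' means (log axis) of the 14 transcripts with all 3 means above the floor; circles are f5-j/j, squares f5-i/j and triangles f5-i/i. The f5-j/j circle lies right of both other points for 4 transcripts, with the transcript matched to LHY (LOC_Os06g51260.1) at 97.6. It lies left of both for 10, with LOC_Os10g28030.1 lowest at 0.0233.

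Enzymes that make or remove reactive oxygen were among the members. Respiratory burst oxidase (LOC_Os01g25820.2), the plasma membrane enzyme that forms superoxide, had the authors' mean of 4.13 for f5-j/j, 25.8 for f5-i/j and 31.7 for f5-i/i. Its f5-i/j mean was 6.26-fold and its f5-i/i mean 7.67-fold that of f5-j/j. The other listed respiratory burst oxidase, LOC_Os04g36720.1, had 34.7 for f5-j/j, 37.1 for f5-i/j and 8.69 for f5-i/i, and so had f5-i/i apart. Catalase (LOC_Os02g02400.2), which breaks down hydrogen peroxide in peroxisomes, was at the floor for f5-j/j, 5.28 for f5-i/j and 4.96 for f5-i/i. Glutathione synthase (LOC_Os11g42350.1), the last step of glutathione synthesis, had 4.91 for f5-j/j and the floor for f5-i/j and f5-i/i. The words chosen for redox matched 4 members, 2 higher and 2 lower in f5-j/j, of 18 listed transcripts. The 18 were listed as 3 higher and 6 lower in f5-j/j than in f5-i/j, and 8 higher and 5 lower than in f5-i/i. Among the members, 1 of the higher was matched by the word oxidase and carries unrelated definitions (LOC_Os09g07020.2).

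Calnexin (LOC_Os04g32950.4) and calreticulin (LOC_Os07g14270.2) hold newly made glycoproteins in the endoplasmic reticulum until they have folded. Calnexin had the authors' mean of 17.6 for f5-j/j and calreticulin 8.53, and both were at the floor for f5-i/j and f5-i/i. Their level in the f5-i/j and f5-i/i samples was thus the lowest the tables give, for these models. Both act as chaperones, but their descriptions hold none of the left-out words, so the rule kept them. The pair was put together after its values were seen.

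Amino acid and nucleotide enzymes went both ways. Those described next came from different word lists and were put together after their values were seen. Transcripts matched by the words for amino acid and nucleotide metabolism were more often listed as lower in f5-j/j. They were listed as 5 higher and 13 lower than in f5-i/j, and 11 higher and 19 lower than in f5-i/i. Glutamate decarboxylase was not matched by these words, and the glycosyltransferase described above was. Glutamine synthetase (LOC_Os02g50240.2), which assimilates ammonium, had the authors' mean of 4.06 for f5-j/j and the floor for the others. Anthranilate phosphoribosyltransferase of tryptophan synthesis (LOC_Os03g03450.2) had 7.21 for f5-j/j and the floor for the others. Glutamate decarboxylase (LOC_Os08g36320.3), which makes gamma-aminobutyrate, went the other way, at the floor for f5-j/j, 4.40 for f5-i/j and 12.0 for f5-i/i. The bifunctional enzyme of the last steps of purine synthesis, a formyltransferase and IMP cyclohydrolase (LOC_Os08g10570.1), was at the floor for f5-j/j, 4.10 for f5-i/j and 13.04 for f5-i/i. For both lower enzymes the heterozygote was well below f5-i/i, at 0.367 and 0.314 of its mean.

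Long-chain acyl-CoA synthetase (LOC_Os11g35400.2), which activates fatty acids for lipid synthesis or breakdown, was the lipid enzyme with the clearest match. Its authors' mean was 24.5 for f5-j/j, 5.48 for f5-i/j and 2.04 for f5-i/i. The heterozygote was 2.68-fold above f5-i/i, the largest such excess among the 31 members above the floor for both. Of the 3 other listed transcripts with this KEGG number none was a member. LOC_Os05g04170.4, on chromosome 5, had 114 for f5-j/j, 9.48 for f5-i/j and the floor for f5-i/i. LOC_Os11g04980.1 had 5.89 for f5-j/j, 12.1 for f5-i/j and the floor for f5-i/i. LOC_Os12g04990.3 had 7.64 for f5-j/j, the floor for f5-i/j and 8.62 for f5-i/i. LOC_Os05g04170.4 thus shared the order of genotypes of the member, and the other two did not.

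A further 3 members, matched to protein complexes of light signalling or to a peptidase, were put together after their values were seen. Each transcript was counted only in the first word list that it matched. The peptidase was counted under lipid and secondary metabolism, through the letters acyl in its name. The proteolysis list, so counted, held 0 members and 11 listed transcripts. These were listed as 7 higher and 2 lower in f5-j/j than in f5-i/j, and 1 higher and 0 lower than in f5-i/i. DET1- and DDB1-associated protein 1 (LOC_Os03g03420.2) belongs to a complex that represses light responses through protein degradation. It was at the floor for f5-j/j, with the authors' mean of 21.3 for f5-i/j and 14.6 for f5-i/i. A transcript with a weak match to subunit 2 of the COP9 signalosome (LOC_Os01g59130.3), a complex of the same pathway, had 0.107 for f5-j/j, 11.1 for f5-i/j and 5.95 for f5-i/i. Acylaminoacyl-peptidase (LOC_Os10g28030.1), which removes blocked amino acids from peptides, had 0.0233 for f5-j/j, 4.12 for f5-i/j and 4.98 for f5-i/i. Its difference was 176-fold and 213-fold, the largest fold against the nearer genotype among the 14 members with all means above the floor, and it rests on a mean close to the floor.

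**Figure D3:**
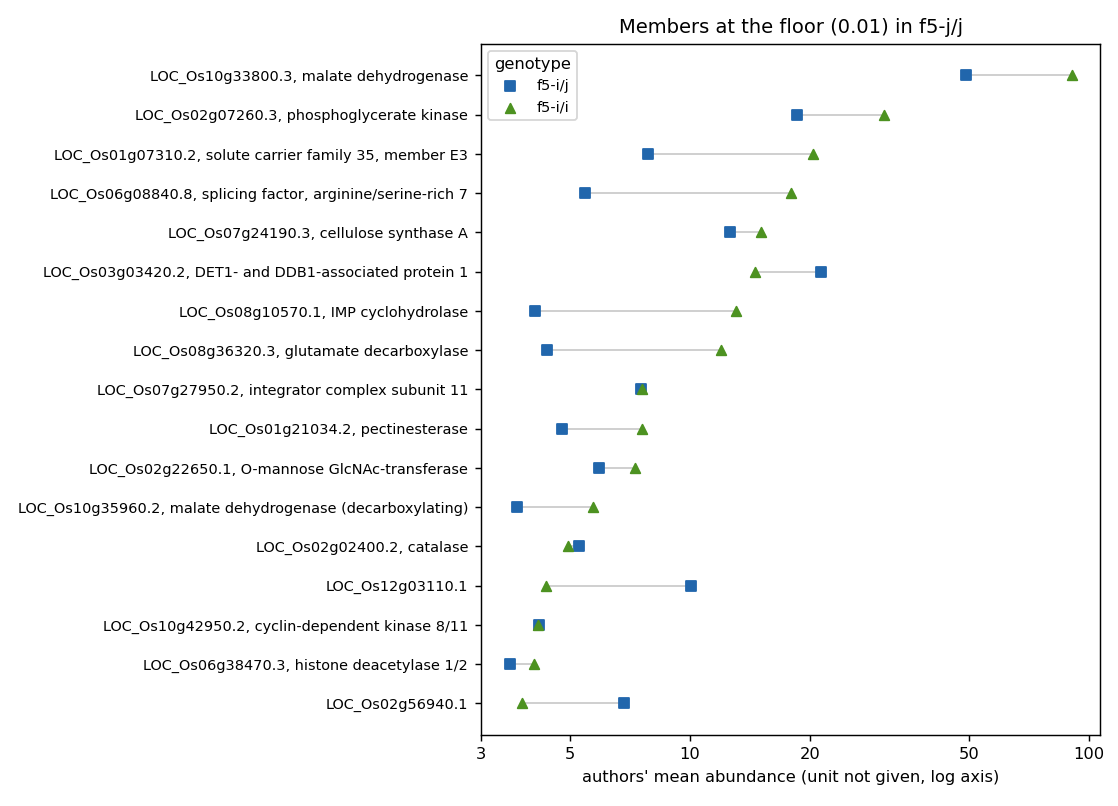
Authors' means (log axis) in f5-i/j (squares) and f5-i/i (triangles) of the 17 transcripts at the floor for f5-j/j, ordered by the f5-i/i mean. Malate dehydrogenase (LOC_Os10g33800.3) is highest at 49.1 for f5-i/j and 90.9 for f5-i/i, and the square lies left of the triangle for 12 of the 17.

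The remaining described members were all higher in f5-j/j and at the floor for f5-i/j and f5-i/i. Weak matches were to the peroxisome assembly factor peroxin-1 (LOC_Os09g39034.1), with the authors' mean of 4.87 for f5-j/j, to a spindle protein and a deubiquitinase (LOC_Os03g64219.3), with 8.51, and to the histidine triad family (LOC_Os04g45280.3), with 8.77. A further 3 carry several unrelated KEGG definitions, so no function is given to them. They are LOC_Os02g25060.2 at 4.25 for f5-j/j, LOC_Os09g04710.2 at 5.47 and LOC_Os09g07020.2 at 7.46.

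Among the undescribed transcripts, LOC_Os03g52690.5 had the highest level of all members in the heterozygote and in f5-i/i. Its authors' mean was 18.1 for f5-j/j, 112 for f5-i/j and 237 for f5-i/i. LOC_Os02g56940.1 was at the floor for f5-j/j, 6.86 for f5-i/j and 3.80 for f5-i/i, and LOC_Os12g03110.1 at the floor for f5-j/j, 10.1 for f5-i/j and 4.36 for f5-i/i. These are the only 2 undescribed members at the floor for f5-j/j, and in both the heterozygote had the higher mean. In the other direction, LOC_Os01g29180.2 had 21.1 for f5-j/j, 2.65 for f5-i/j and 2.40 for f5-i/i. LOC_Os12g38660.1 had 22.8 and LOC_Os10g33350.3 had 3.78 for f5-j/j, each with the floor for the others. The value of LOC_Os12g38660.1 is the highest f5-j/j mean among transcripts at the floor for both other genotypes.

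The heterozygote could be compared with f5-i/i in amount for the 31 transcripts above the floor for both. The ratio of the f5-i/j mean to the f5-i/i mean had a median of 0.872 and ran between 0.306 and 2.68. The 2 means lay within 1.5-fold of each other for 15 transcripts and within 2-fold for 24. The heterozygote was more than 2-fold below f5-i/i for 5 and more than 2-fold above it for 2. The 5 were the SR splicing factor 7, IMP cyclohydrolase, glutamate decarboxylase and solute carrier transcripts and LOC_Os03g52690.5. The 2 above were long-chain acyl-CoA synthetase and LOC_Os12g03110.1. The heterozygote was therefore like f5-i/i in being unlisted against it, but not equal to it in every member.

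Among the 17 transcripts at the floor for f5-j/j, the heterozygote mean was below the f5-i/i mean for 12, with a median ratio of 0.812. Among the 10 lower transcripts with all means above the floor it was below for 5, with a median ratio of 0.933. The 4 higher transcripts with all means above the floor had a median ratio of 1.12. No error of these ratios can be given.

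**Figure D4:**
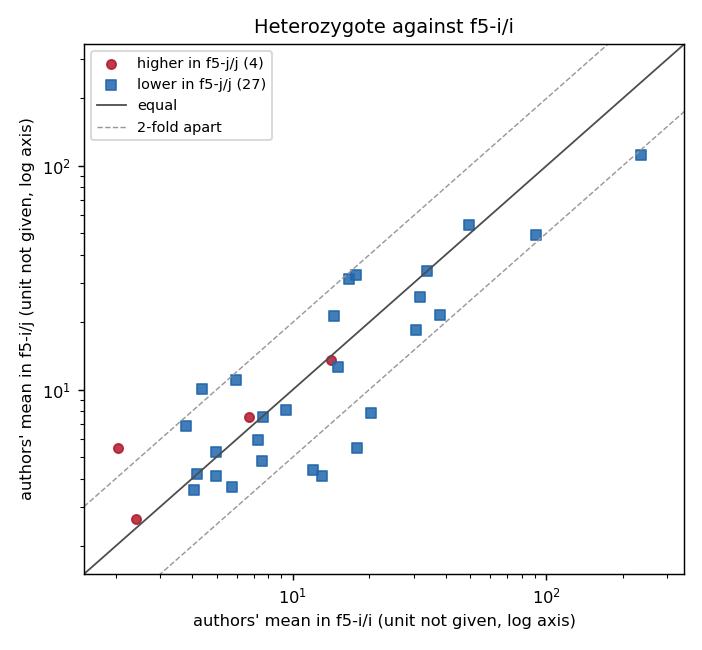
Authors' mean in f5-i/j against that in f5-i/i (both log axes) for the 31 transcripts above the floor for both; circles are the 4 higher and squares the 27 lower in f5-j/j, the solid line marks equal means and the dashed lines a 2-fold difference. Of the points, 24 lie between the dashed lines, 5 below and 2 above.

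Some features that the rule did not use were set beside those of all listed transcripts. The median coding length was 1116 bases in the members and 916.5 in all 832. The first model of the locus (the identifier's suffix is 1) made up 16 of the 51 members (31.4%), against 41.4% of the 649 loci with a single listed transcript. Most members are thus alternative models, 8 of the 24 higher and 8 of the 27 lower being first models. The members lay on every chromosome but 5, with 7 each on chromosomes 1, 2 and 10, by the chromosome number in their identifiers. Chromosome 10 held 13.7% of the members and 6.06% of the listed single-transcript loci outside chromosome 5, and 6 of its 7 members were lower in f5-j/j. These shares were not tested.

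Neighbouring members on a chromosome had identifiers within 1000 of each other in 3 cases. The identifiers of DET1- and DDB1-associated protein 1 (LOC_Os03g03420.2, lower in f5-j/j) and anthranilate phosphoribosyltransferase (LOC_Os03g03450.2, higher in f5-j/j) differ by 30. LOC_Os10g33350.3 (higher) and malate dehydrogenase (LOC_Os10g33800.3, lower) differ by 450, and LOC_Os12g02310.1 and LOC_Os12g03110.1, both lower, by 800. In all, 8 members had 17 other listed transcripts with the same KEGG number, and 0 of the 17 was a member. Some of the 17 were barred by the rule, namely the models of LOC_Os08g06110 and, on chromosome 5, LOC_Os05g04170.4 and LOC_Os05g31140.1.

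The same steps applied to the other genotypes gave 70 transcripts with f5-i/j apart from both homozygotes and 107 with f5-i/i apart. A mean at the floor occurred in 72.5% of the members, in 72.9% of the f5-i/j set and in 62.6% of the f5-i/i set. First models made up 31.4% of the members, 32.9% of the f5-i/j set and 42.1% of the f5-i/i set. The median coding length was 1116 bases in the members, 1033.5 in the f5-i/j set and 867 in the f5-i/i set. None of these differences was tested.

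The word lists, searched in the descriptions of all 832 transcripts, held few members each. A transcript was counted only in the first list that it matched. Transcription and chromatin had 3 members of 63 listed transcripts, 1 higher and 2 lower in f5-j/j. Hormone and signalling had 3 of 56, 1 higher and 2 lower, with phosphoglycerate kinase among the lower through the word kinase. The 56 were listed as 9 higher and 13 lower in f5-j/j than in f5-i/j, and 16 higher and 13 lower than in f5-i/i. Carbohydrate and energy had 4 of 45, 1 higher and 3 lower, and lipid and secondary metabolism had 3 of 29, 2 higher and 1 lower. The lower lipid member was acylaminoacyl-peptidase, through the letters acyl, and 1 of the higher, LOC_Os09g04710.2, carries unrelated definitions. The 29 were listed as 9 higher and 8 lower in f5-j/j than in f5-i/j, and 7 higher and 3 lower than in f5-i/i. Amino acid and nucleotide metabolism had 4 of 50, 2 higher and 2 lower. Transport and vesicles had 1 of 26, lower, and DNA replication and repair had 1 of 12, higher. The DNA replication and repair member, LOC_Os02g25060.2, carries unrelated definitions. The 12 were listed as 3 higher and 2 lower in f5-j/j than in f5-i/j, and 3 higher and 3 lower than in f5-i/i. Proteolysis had 0 of 11, and no listed transcript matched the words for male reproduction. A further 12 described members (7 higher) matched no list and 10 members (4 higher) had no KEGG or BLAST description.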

How the data were processed

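Spikelet polyA RNA was sequenced on an Illumina HiSeq instrument after random-primed cDNA synthesis, per the labels' protocols. The submitters' processing notes list BWA, Bowtie and RSEM but say nothing of their roles. No source used here gives the build, the annotation, the normalization or the program behind the probabilities, or says that samples of 1 genotype are different plants. The authors deposited mean signal values per genotype; the 3 deposited tables hold only transcripts with a probability of at least 0.8. Every deposited mean was a whole multiple of 1/300 within 1e-06, as a mean of 3 values with 2 decimals is, so no sample can exceed 3 times its genotype mean. The deposited log2 ratios, which the tables give as f5-i/j over f5-j/j and f5-i/i over f5-j/j, equalled those recomputed from the means and were not printed. The deposited probability is a score, not a p-value. Deposited lengths are multiples of 3 and were read as coding lengths.

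The genotype of each mean column was taken from the table names. A fold divides 1 authors' mean by another, and none was formed with 0.01, the smallest deposited mean, called the floor. No statistical model or test was used. The members and the word lists were chosen with earlier results of these data known. Every member was named, as the rule for named genes asked of described members and of the undescribed ones with the largest ratios or levels. Descriptions are the KEGG matches in the tables, present for 41 of the 51 members; 24 of these have a rice protein as best match and 6 are weaker than an E-value of 1e-20, called weak in the text. Of the member identifiers, 0 matched the RefSeq gene table (ASM3414082v1), so no coordinates or sequences are printed. Python 3.11.15, pandas 2.3.3 and matplotlib 3.10.9 were used. Other fold, probability and selection limits and pseudocounts of 0.1 and 1 were tried.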

Additional observations from a re-analysis of the deposited data

How the results depend on the processing

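The count of 51 members stayed within 1.5 times when 4-fold was required (50), when the heterozygote had to lie within 2-fold of f5-i/i (43), when loci with several listed transcripts were kept (62) and when chromosome 5 and the left-out words were kept (70). A probability of at least 0.9 in the authors' deposited tables left 18 members, 10 higher and 8 lower in f5-j/j. Leaving out transcripts at the floor left 14, 4 higher and 10 lower. The median fold against the nearer genotype, among transcripts above the floor, was 5.70 for the higher and 32.9 for the lower members. For the higher members it was 6.92 at 4-fold and with the heterozygote within 2-fold, 6.26 with several transcripts per locus, 4.56 with chromosome 5 and the words kept, and 5.001 with 1 added to each mean. For the lower members it was 112 at a probability of 0.9, 55.8 with the heterozygote within 2-fold, 10.1 with several transcripts per locus and with chromosome 5 and the words kept, and 6.09 with 1 added to each mean. No higher member above the floor was left at a probability of 0.9. With 1 added, the 14 folds ran between 3.55 and 24.6, against 3.88 and 176 without it; with 0.1 added they ran between 3.85 and 86.3. The members nearest to the 2-fold limit were LOC_Os01g09220.1, LOC_Os10g05910.1 and LOC_Os11g35400.2, at 3.88-fold, 4.28-fold and 4.47-fold, and no listed transcript was just outside it.

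No paired analysis was possible because the deposited tables hold genotype means and no values of single samples, and for the same reason leaving out each replicate in turn was not run. The depth behind each mean is unknown.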

Other observations

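The same pattern was shown by 38 transcripts that the selection left out. Of these, 19 were of 15 loci with several listed transcripts, 11 others lay on chromosome 5 and 8 others had a left-out word in their description. At 2 loci of the first kind, models went in opposite directions; the loci named here were chosen after their values were seen. The plant MYB locus LOC_Os01g40670 had model 1 at the authors' mean of 14.5 for f5-j/j, 47.1 for f5-i/j and 53.4 for f5-i/i, and model 2 at 32.2 for f5-j/j, 2.59 for f5-i/j and 1.87 for f5-i/i. LOC_Os10g27274 had model 1 at the floor for f5-j/j, 7.93 for f5-i/j and 8.79 for f5-i/i, and model 3 at 13.4 for f5-j/j and the floor for the others. Of the 11 others on chromosome 5, 4 were higher and 7 lower in f5-j/j. LOC_Os05g09550.3, LOC_Os05g38270.2 and LOC_Os05g44130.1 also lie on chromosome 5 and were higher, but were counted under loci with several listed transcripts. Among the 7 lower was a dynamin GTPase (LOC_Os05g48240.4), a membrane-cutting protein, at the floor for f5-j/j, 12.9 for f5-i/j and 6.98 for f5-i/i.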
